A study of Mus musculus with 42 samples.

Results

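Transcripts of 9 genes of homologous recombination (Brca1, Brca2, Bard1, Palb2, Rad51ap1, Rad54l, Xrcc2, Blm and Exo1) were followed in mouse pre-B cell lines after ionizing radiation. The members were all probe sets that the platform annotation pairs with these symbols. Values were found for 8 of the 9, among 18193 genes whose probe sets carry 1 symbol. They had 19 probe sets, of 45037 that were not controls: 4 each for Brca1, Rad51ap1 and Rad54l, 3 for Exo1 and 1 each for Brca2, Bard1, Palb2 and Blm. Xrcc2 was not analysed here. Expression was measured on 42 Affymetrix arrays, which report a fluorescence intensity for each probe set, in 21 cell lines. Each line was exposed to a final dose of 1 Gy of gamma rays or mock treated, and RNA was taken 2 h later.

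The lines came from bone marrow of mice aged 3 to 5 weeks and were transformed with a pMSCV-v-abl retrovirus, which carries an oncogenic tyrosine kinase. All of them, WT included, carried the Em-Bcl2 transgene, an inhibitor of cell death. There were 3 lines of each of 7 genotypes. Atm-/- lines lack the kinase that starts signalling at DNA double-strand breaks, and Scid lines are mutated in DNA-PKcs/Prkdc, the kinase of end joining. Mre11A/A lines are mutated in the nuclease of the complex that binds broken ends. The 53bp1-/-, H2ax-/- and Mdc1-/- lines each lack a protein of the chromatin around a break, and WT lines carry none of these mutations. The lines are transformed cells in culture, each with its own history. The design sets the radiation response of every genotype against that of WT lines and against those of the remaining mutants.

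Homologous recombination repairs a broken chromosome by copying the sister chromatid, and it works in S and G2 phase, when a sister is present. Exo1, an exonuclease, and Blm, a RecQ helicase, help to trim the broken ends to single strands. Brca1 and Bard1 form a ubiquitin ligase that is recruited to breaks, and Palb2 joins Brca1 to Brca2, which acts on the single-stranded DNA. Rad51ap1 and Rad54l, a DNA translocase, help in the invasion of the sister; Blm also takes joined molecules apart. In developing B cells the breaks made by the Rag recombinase during antigen receptor assembly arise in G1 and are joined by non-homologous end joining, whereas breaks at replication forks call on recombination. Many genes of this pathway are transcribed most in late G1 and S phase, through E2F sites, and CCAAT boxes are common in promoters of genes of the cell cycle.

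Promoter windows of 3 members are printed because their levels across lines are described together below; they were chosen after the values had been seen. The sequences are those of RefSeq on mouse assembly GRCm38.p6, each 300 bases long, from 250 bases before the start site to 50 after it. All 3 genes lie on the minus strand of their chromosome, and each window is printed in the direction of transcription. Rad54l had 2 start sites, and the window of 1 of them is printed. Capitals mark E2F-type 7-mers and CCAAT, each searched on both strands. The 7-mers searched were TTCCCGC and its variants with other inner bases, which were TTGGCGC, then TTCGCGC and lastly TTGCCGC. None of the marked matches overlapped another.
Rad51ap1, chr6:126939538-126939837: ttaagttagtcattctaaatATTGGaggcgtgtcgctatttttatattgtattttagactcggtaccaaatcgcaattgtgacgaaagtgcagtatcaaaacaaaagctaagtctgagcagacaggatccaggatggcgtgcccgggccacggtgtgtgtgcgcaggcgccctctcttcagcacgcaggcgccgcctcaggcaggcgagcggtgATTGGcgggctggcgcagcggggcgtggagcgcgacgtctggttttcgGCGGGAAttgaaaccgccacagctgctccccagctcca
Brca1, chr11:101551906-101552205: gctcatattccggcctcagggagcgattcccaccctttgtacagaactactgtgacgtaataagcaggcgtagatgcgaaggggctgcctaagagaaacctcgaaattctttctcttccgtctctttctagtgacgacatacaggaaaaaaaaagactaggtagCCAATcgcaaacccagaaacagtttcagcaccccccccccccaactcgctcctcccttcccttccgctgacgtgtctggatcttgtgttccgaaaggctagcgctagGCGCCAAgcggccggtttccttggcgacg
Rad54l, chr4:116123640-116123939: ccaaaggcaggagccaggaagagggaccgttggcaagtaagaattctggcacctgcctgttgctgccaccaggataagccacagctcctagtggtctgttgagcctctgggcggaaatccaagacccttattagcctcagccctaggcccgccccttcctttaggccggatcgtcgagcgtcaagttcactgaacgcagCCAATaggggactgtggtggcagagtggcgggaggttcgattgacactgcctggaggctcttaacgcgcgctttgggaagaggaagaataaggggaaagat
With the start site as base 1, the E2F-type match of Rad51ap1 began at base 13 and that of Brca1 at base 22. CCAAT matches began at bases -230 and -36 in Rad51ap1, at -86 in Brca1 and at -51 in Rad54l. Windows were at hand for 7 members, all but Exo1 and Xrcc2. An E2F-type 7-mer was present in 5 of the 7 (Bard1, Blm, Brca1, Brca2 and Rad51ap1), against 9.6% of 32851 RefSeq windows of the same length. CCAAT was present in 5 of the 7 (Blm, Brca1, Palb2, Rad51ap1 and Rad54l), against 37.4% of all windows. The cell-cycle homology region, searched as TTTGAA or TTCGAA and known from promoters of G2/M genes, was present in 1 of the 7 (Bard1), against 19.2% of all windows. A match describes letters in a window and does not show that a factor binds there.

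Every array had a mean of 500 after the highest and lowest 2% of its values were trimmed. Median signals lay between 62.6 and 82.9 on 40 arrays; the irradiated arrays of Atm-/- line 2 (116) and WT line 4 (103) stood above them. Targeted genes followed the labels in Atm-/- lines (Atm 177 ± 56.9, against 1520 ± 150 in WT; SD, n = 6 arrays each), in H2ax-/- lines (H2ax 69.5 ± 30.7, against 10700 ± 1590), in Mdc1-/- lines (Mdc1 60.7 ± 73.1, against 418 ± 53.3) and in Mre11A/A lines (Mre11a 559 ± 101, against 1500 ± 131). Trp53bp1 averaged 978 ± 221 in 53bp1-/- and 1480 ± 258 in WT lines, with overlapping arrays, and Prkdc 525 ± 70.5 in Scid and 593 ± 46.2 in WT lines. Of 11 pre-B cell markers found on the array, 10 lay above the array median on all 42 arrays. The same held for 1 of 6 T cell markers, 1 of 10 myeloid, 0 of 3 erythroid and 0 of 10 stromal markers.

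All 19 probe sets passed the filter on low values, which asked for a signal above the array's own median on at least 3 arrays. Of these, 15 probe sets of 7 genes lay above the median on all 42 arrays. The weakly hybridizing ones were Bard1 1420594_at (above the median on 16 arrays), Exo1 1430225_at (13), Brca1 1427698_at (31) and Rad54l 1453926_at (32). Bard1 therefore had no well-measured probe set. Signals of different probe sets depend on their probes and were not compared with one another. Below, a gene's values are those of its probe set with the highest mean unless another is named.

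**Figure D1:**
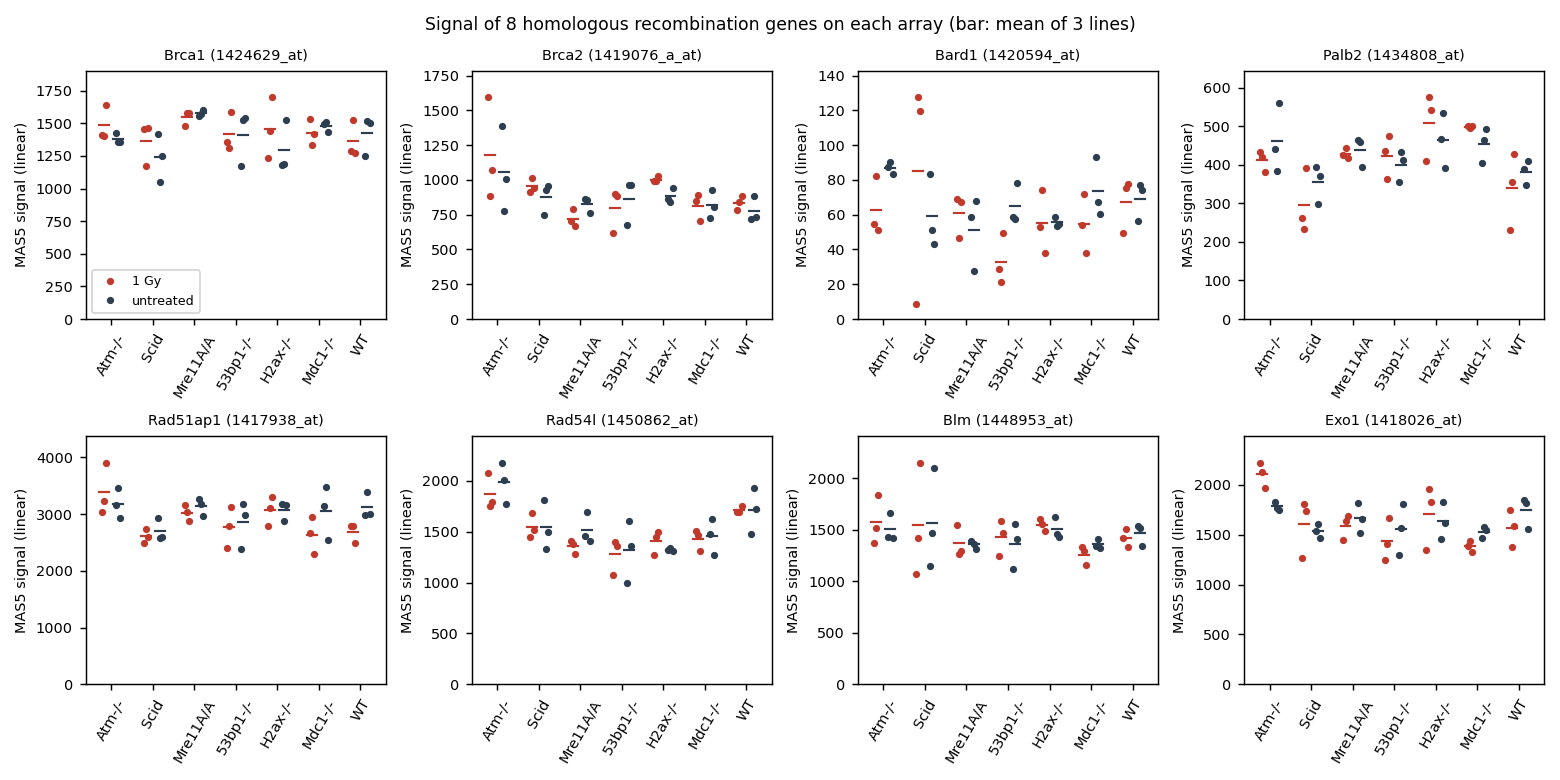
MAS5 signal (linear scale, from 0) of the probe set with the highest mean for each of 8 homologous recombination genes, with 1 point per array and a bar for the mean of 3 lines, by genotype, irradiated (red) left of untreated (dark). Irradiated and untreated points of most genotypes lie in the same range; the Exo1 points of irradiated Atm-/- lines (1969 to 2224) lie above those of untreated Atm-/- lines (1749 to 1832), and Bard1 lies near the array medians.

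The first question was whether radiation altered these transcripts at all, taking the change within each line (irradiated minus untreated, on log2(signal + 16)) and weighting the 7 genotypes equally. On this average, the well-measured homologous recombination transcripts lay close to their untreated level at 2 h. The average changes of the 15 well-measured probe sets ran between -0.08 and 0.08 on the log2 scale. Their 95% confidence intervals lay between -0.17 and 0.17, which is between 11.2% lower and 12.3% higher. Of the 19 probe sets 1 passed the test (limma, Benjamini-Hochberg adjusted p under 0.05 over all 28217 probe sets), beside 10.8% of all probe sets. The median change was -0.03 over the 19 probe sets and 0 over all probe sets tested. At an unadjusted p under 0.05 there were 3 members, all lower after radiation, beside 22.7% of all probe sets. Of these 3, 2 were among the 4 weakly hybridizing probe sets and 1 among the 15 well-measured ones. The average changes of the 4 weak probe sets lay between -0.35 and -0.18.

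**Figure D2:**
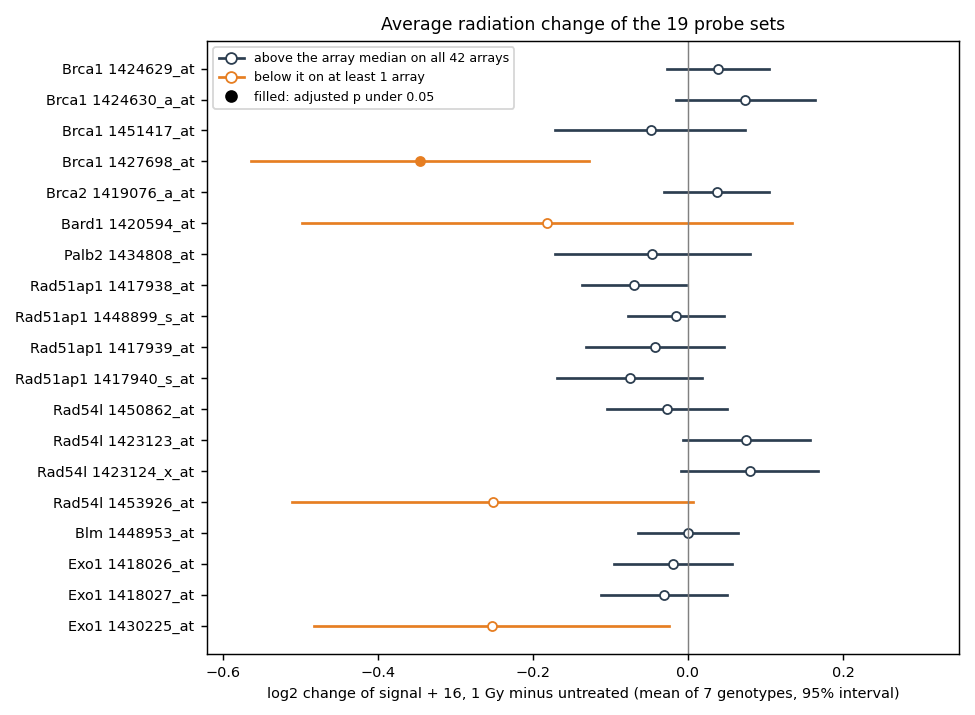
Average change of each of the 19 probe sets after 1 Gy (log2 of signal + 16, irradiated minus untreated, mean of 7 genotypes), with 95% confidence intervals. Probe sets above the array median on all 42 arrays (dark) lie between -0.08 and 0.08, those below it on at least 1 array (orange) have wider intervals, and the filled point, Brca1 1427698_at, passed the test.

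The nucleases and helicases of end trimming came first in the pathway. Exo1 (1418026_at) signals ran between 1244 and 2224 in irradiated lines, with a median of 1639, against 1296 to 1853 in untreated lines, with a median of 1604. Of the irradiated arrays 4, those of the 3 Atm-/- lines and H2ax-/- line 2, lay above every untreated one, and 10 of 21 lines were higher after radiation (average change -0.02 ± 0.04, SE; adjusted p = 0.828). A second well-measured Exo1 probe set, 1418027_at, gave -0.03 ± 0.04 (adjusted p = 0.713). The weak Exo1 probe set 1430225_at was lower after radiation in 16 of 21 lines, with a median change of -0.31 over lines. It did not pass the test on the average. Blm signals ran between 1072 and 2151 in irradiated lines, median 1423, against 1122 to 2096 in untreated lines, median 1418. Blm had the value closest to 0 of the members named here by their brightest probe set, 0.00 ± 0.03 (adjusted p = 0.998), with an interval between -0.06 and 0.06. Its widest range of levels was within Scid lines, whose irradiated and untreated arrays both followed the line: 1072, 1423 and 2151 after radiation, against 1145, 1466 and 2096 untreated in lines 1, 2 and 3.

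Among the mediators, Brca1 (1424629_at) ranged between 1172 and 1699 in irradiated lines, median 1439, against 1053 to 1601 in untreated lines, median 1436. It was higher after radiation in 14 of 21 lines, with an average change of 0.04 ± 0.03 (adjusted p = 0.523). Brca2 ranged between 622 and 1594 in irradiated lines, median 885, against 676 to 1385 in untreated lines, median 861. Its average change was 0.04 ± 0.03 (adjusted p = 0.564), with 11 lines higher and 10 lower. Palb2 ranged between 230 and 575 in irradiated lines, median 425, against 299 to 559 in untreated lines, median 410 (average change -0.05 ± 0.06, adjusted p = 0.727). Bard1 lay between 8.49 and 128 in irradiated lines, median 53.9, against 27.4 to 93.3 in untreated lines, median 60.4. At signals that low its interval was wide, between 29.2% lower and 9.7% higher (average change -0.18 ± 0.15, adjusted p = 0.535).

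The probe set that passed the test was Brca1 1427698_at, the weakest of the 4 Brca1 probe sets. Its signals ran between 30.4 and 139 in irradiated lines, median 73.7, against 66.0 to 177 in untreated lines, median 102. It was lower after radiation in 17 of 21 lines, by -0.35 ± 0.11 on the log2 scale (adjusted p = 0.0353), and the 2 ranges overlapped. The other 3 Brca1 probe sets had changes of 0.04, 0.07 and -0.05, none of which passed the test. Without pairing the arrays of a line the adjusted p of 1427698_at was 0.0793. It was 0.0706 without Atm-/- line 2 and WT line 4, whose irradiated arrays had high medians. Leaving out each of the 21 lines in turn gave values between -0.39 and -0.29 and adjusted p between 0.0172 and 0.082. The call was lost without any of 10 of the 21 lines: WT lines 1 and 4, Atm-/- line 1, Scid line 1, Mre11A/A line 2, 53bp1-/- lines 1 and 2, H2ax-/- line 1, or Mdc1-/- lines 1 and 2.

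Of the factors of strand invasion, Rad51ap1 (1417938_at) ranged between 2296 and 3909 in irradiated lines, median 2795, against 2390 to 3471 in untreated lines, median 2997. It was lower after radiation in 15 of 21 lines, with an average change of -0.07 ± 0.03 (adjusted p = 0.202). Without Atm-/- line 3, in which it was higher by 0.41, the average was -0.09 and the adjusted p 0.028. The other 3 Rad51ap1 probe sets gave -0.02, -0.04 and -0.08, none past the test. Rad54l (1450862_at) ranged between 1076 and 2077 in irradiated lines, median 1469, against 997 to 2181 in untreated lines, median 1480 (average change -0.03 ± 0.04, adjusted p = 0.736). The Rad54l probe sets 1423123_at and 1423124_x_at both gave 0.08 (adjusted p = 0.275 and 0.28), and the weak 1453926_at gave -0.25 ± 0.13 (adjusted p = 0.233).

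**Figure D3:**
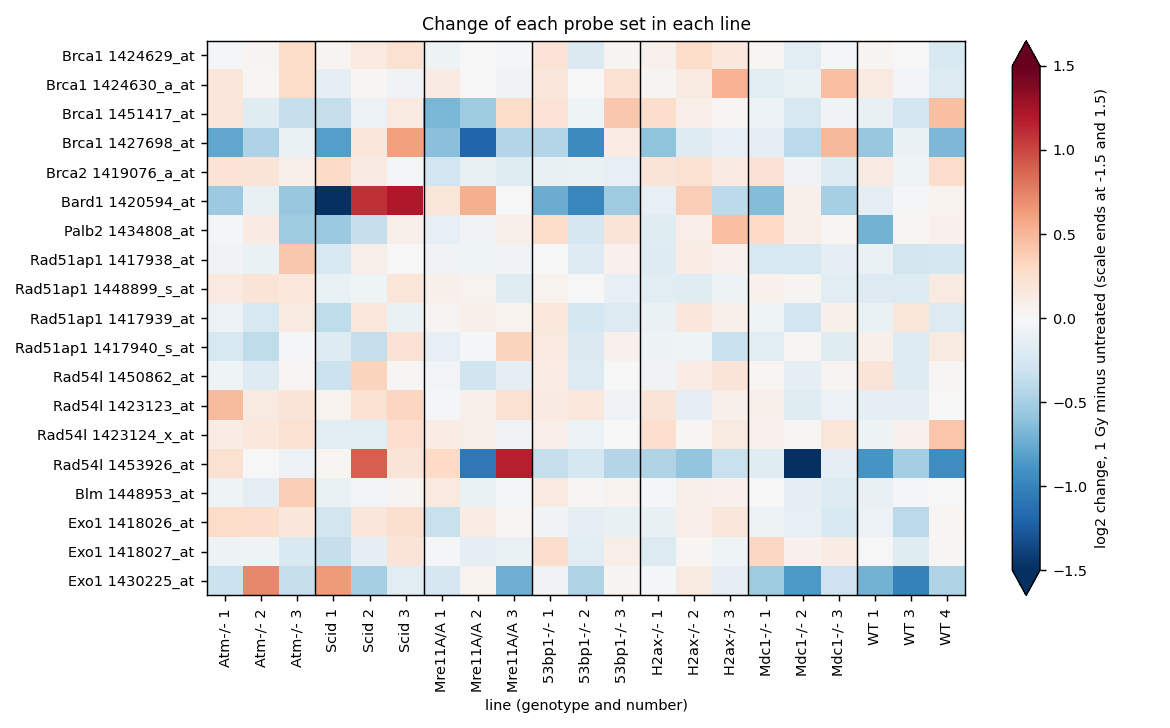
Change of each of the 19 probe sets in each of the 21 lines (log2 of signal + 16, irradiated minus untreated; red higher, blue lower after radiation; the colour scale ends at -1.5 and 1.5). Well-measured probe sets are pale in nearly every line, and the dark cells belong mostly to the 4 weak probe sets.

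Within each genotype no member passed the test. In the 7 responses 0 of 19 probe sets were called, beside 1.28% of all probe sets in Atm-/-, 1.71% in Scid, 0.0461% in Mre11A/A, 1.17% in 53bp1-/-, 1.07% in H2ax-/-, 3.58% in Mdc1-/- and 2.25% in WT lines. With shares that low, the expected number among 19 probe sets is below 1 in every genotype, so the counts of 0 read no differently from the background. At an unadjusted p under 0.05 there were 3 of 19 members in Atm-/- lines, all higher, beside 15.2% of all probe sets. The others were 0 in Scid (beside 11%), 2 lower in Mre11A/A (beside 4.69%), 0 in 53bp1-/- (beside 7.53%), 1 higher in H2ax-/- (beside 9.64%), 2 lower in Mdc1-/- (beside 13.4%) and 3 lower in WT lines (beside 14%). The 105 changes of well-measured probe sets lay between -0.32 and 0.27. With 3 lines per genotype their intervals reached between 35.8% lower and 42.3% higher, wider than those of the average over genotypes.

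Exo1 was 1 of the 3 members at an unadjusted p under 0.05 in Atm-/- lines. It had 2224, 2132 and 1969 in irradiated Atm-/- lines 1, 2 and 3, against 1832, 1773 and 1749 in the same lines untreated. All 3 irradiated arrays lay above all 3 untreated ones, and the change was 0.24 ± 0.10 (adjusted p = 0.24). In WT lines 1, 3 and 4 Exo1 had 1749, 1377 and 1591 irradiated, against 1853, 1823 and 1562 untreated, a change of -0.15 ± 0.10 (adjusted p = 0.519). The second Exo1 probe set did not share this order, since all irradiated Atm-/- arrays of 1418027_at lay below the untreated ones. Another 2 probe sets were higher in all 3 Atm-/- lines at an unadjusted p under 0.05, Rad54l 1423123_at (0.27 ± 0.11, adjusted p = 0.214) and Rad51ap1 1448899_s_at (0.17 ± 0.08, adjusted p = 0.311). Of the 19 probe sets, 3 lay higher and 4 lower after radiation without overlap in Atm-/- lines. Rad51ap1 1417940_s_at was among the 4 lower ones. In H2ax-/- and in Mdc1-/- lines 2 lay higher and 2 lower, and in WT lines 3 lay lower. In 53bp1-/- lines 2 lay lower, in Mre11A/A lines 1 lay lower and in Scid lines 1 lay higher. The share of all probe sets without such overlap was not counted, so nothing about the members is read from these counts.

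Rad51ap1 (1417938_at) had 2784, 2790 and 2488 in irradiated WT lines 1, 3 and 4, against 2976, 3382 and 2997 untreated, without overlap (change -0.21 ± 0.09, adjusted p = 0.242). In Mdc1-/- lines 1, 2 and 3 it had 2659, 2947 and 2296 irradiated, against 3150, 3471 and 2536 untreated (change -0.21 ± 0.09, adjusted p = 0.261). Each of these 6 lines was lower after radiation, while the ranges of Mdc1-/- lines overlapped. In the other 5 genotypes its changes lay between -0.05 and 0.08. The remaining Rad51ap1 probe sets did not share this fall, since each had a line that was higher in WT and in Mdc1-/-. The next brightest, 1448899_s_at, changed by -0.19, -0.204 and 0.139 in WT lines 1, 3 and 4. In Mdc1-/- lines 1, 2 and 3 it changed by 0.065, 0.038 and -0.166.

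Brca2 had the smallest p of the F test for unequal responses among the 7 genotypes (adjusted p = 0.439). It had 703, 789 and 668 in irradiated Mre11A/A lines 1, 2 and 3, against 864, 854 and 761 untreated, and was lower in all 3 (change -0.20 ± 0.09, adjusted p = 1.0). In H2ax-/- lines 1, 2 and 3 it had 990.1, 989.7 and 1026 irradiated, against 861, 843 and 943 untreated, and was higher in all 3 without overlap (change 0.18 ± 0.09, adjusted p = 0.508). In WT lines 1, 3 and 4 it had 784, 841 and 882 irradiated, against 718, 881 and 732 untreated (change 0.11 ± 0.09, adjusted p = 0.638).

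The study also asked whether mutants responded differently from WT. Of 114 differences (19 probe sets in 6 mutants, all against the same WT arrays) 0 passed the test. Among all probe sets 1.01% differed between the Atm-/- and WT responses and 0% in the other 5 comparisons. At an unadjusted p under 0.05 there were 6 differences, 4 of them in Atm-/- (beside 13.7% of all probe sets) and all 4 higher there than in WT. The other 2 were 1 in Scid (beside 5.44%) and 1 in Mre11A/A (beside 7.96%), with 0 in 53bp1-/- (beside 5.27%), H2ax-/- (beside 4.6%) and Mdc1-/- (beside 4.97%). The smallest p was that of Exo1 1418026_at, whose change was higher by 0.39 ± 0.14 in Atm-/- than in WT lines (adjusted p = 0.179), with an interval between 0.11 and 0.67. The others in Atm-/- were Rad51ap1 1417938_at (0.30 ± 0.12, adjusted p = 0.259), Rad51ap1 1448899_s_at (0.25 ± 0.11, adjusted p = 0.304) and Rad54l 1423123_at (0.36 ± 0.15, adjusted p = 0.261). Not all well-measured probe sets of these genes shared this order. Rad51ap1 1417940_s_at changed by -0.24, -0.38 and -0.02 in the Atm-/- lines, against 0.08, -0.20 and 0.14 in the WT lines. Rad54l 1450862_at, the brightest, changed by -0.07, -0.195 and 0.02, against 0.19, -0.19 and 0.02. The F test over genotypes called 0 of 19 members, beside 0.542% of all probe sets, with 1 member at an unadjusted p under 0.05, beside 10.3%.

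Untreated levels were then compared among genotypes, with the 3 lines of a genotype as replicates. The labels give no batch or scan date, so differences between genotypes cannot be told apart from batches that some genotypes may share. The shares of all probe sets called against WT were smaller in Atm-/- and Scid lines than in the other mutants. In none of the 6 mutants did a member's difference from untreated WT pass the test (limma, adjusted p under 0.05), beside 0.0532% of all probe sets in Atm-/-, 0.248% in Scid, 4.42% in Mre11A/A, 4.37% in 53bp1-/-, 4.95% in H2ax-/- and 6.63% in Mdc1-/- lines. At an unadjusted p under 0.05 there were 7 of 114 differences. They were 1 higher in Atm-/- (beside 10.2% of all probe sets), 1 lower in Scid (beside 11.4%), 2 lower in Mre11A/A (beside 17.6%), 1 lower in 53bp1-/- (beside 18.6%), 1 lower in H2ax-/- (beside 19.2%) and 1 lower in Mdc1-/- lines (beside 20.5%). The 90 differences of well-measured probe sets lay between -0.51 and 0.40. The F test called 1 of 19 members, beside 16.5% of all probe sets, and 6 at an unadjusted p under 0.05, beside 31.7%. For the 8 brightest probe sets the smallest adjusted p of the F test was 0.0876 (Rad54l), and the other 7 lay between 0.367 (Palb2) and 0.883 (Blm).

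Levels of each gene over the untreated genotypes are given as means ± SD of 3 lines. Rad54l (1450862_at) was highest in Atm-/- lines at 1985 ± 207, followed by 1548 ± 245 in Scid, 1522 ± 153 in Mre11A/A, 1457 ± 178 in Mdc1-/-, 1324 ± 14.6 in H2ax-/- and 1320 ± 306 in 53bp1-/- lines, against 1714 ± 228 in WT lines. Neighbours in that order differed by less than 1 SD of the wider group, apart from the step between Atm-/- and WT, and Atm-/- and WT lines still overlapped. The 3 Atm-/- lines had 2181, 2005 and 1769, against 1480, 1935 and 1729 in WT lines. The differences from WT with the smallest p were -0.39 ± 0.16 in 53bp1-/- (adjusted p = 0.187) and -0.36 ± 0.16 in H2ax-/- lines (adjusted p = 0.224).

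The probe set that the F test called was Rad54l 1423123_at (adjusted p = 0.0179). It had 337, 291 and 284 in untreated Scid lines 1, 2 and 3, against 465, 428 and 419 in untreated WT lines, and the untreated lines of the other 5 genotypes ran between 368 and 567. The Scid lines lay below every other untreated line, and after radiation they had 349, 343 and 358, against 390 to 422 in irradiated WT lines. Tested against WT, the untreated difference was -0.51 ± 0.14 (adjusted p = 0.124). The brightest Rad54l probe set did not share this order, with 1548 ± 245 in Scid lines, and across the 21 untreated lines the 2 probe sets had a correlation of -0.04. Another well-measured Rad54l probe set, 1423124_x_at, also had its lowest genotype mean in Scid lines, both irradiated (315 ± 22.8, against 371 ± 20.8 in WT lines) and untreated (323 ± 38.8, against 339 ± 58.6). Its untreated lines of Scid and WT overlapped, and it did not pass the F test (adjusted p = 0.299). Without Scid line 2 or Scid line 3 the adjusted p of the F test of 1423123_at was 0.0746 and 0.0831. Untreated Scid and WT lines did not overlap for 4 of the 19 probe sets, all lower, beside 15.8% of all probe sets in either direction.

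Brca1 (1424629_at) averaged 1576 ± 23.6 in untreated Mre11A/A, 1481 ± 39.1 in Mdc1-/-, 1413 ± 211 in 53bp1-/-, 1380 ± 40.7 in Atm-/-, 1299 ± 196 in H2ax-/- and 1240 ± 183 in Scid lines, against 1423 ± 151 in WT lines. Brca2 averaged 1054 ± 309 in Atm-/-, 882 ± 53.1 in H2ax-/-, 877 ± 113 in Scid, 866 ± 165 in 53bp1-/-, 826 ± 57.1 in Mre11A/A and 820 ± 102 in Mdc1-/- lines, against 777 ± 90.5 in WT lines. Its high mean in Atm-/- lines came with 1386 in line 1, the highest untreated value of all, while line 2 had 773. Neighbouring genotypes in the order differed by less than the SD of at least 1 of them, apart from Mre11A/A and Mdc1-/- for Brca1, and no difference from WT passed the test.

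Palb2 averaged 465 ± 72.1 in untreated H2ax-/-, 462 ± 88.9 in Atm-/-, 453 ± 45.3 in Mdc1-/-, 440 ± 39.3 in Mre11A/A, 400 ± 39.9 in 53bp1-/- and 355 ± 49.5 in Scid lines, against 382 ± 31.7 in WT lines. Rad51ap1 (1417938_at) averaged 3186 ± 267 in Atm-/-, 3139 ± 154 in Mre11A/A, 3077 ± 169 in H2ax-/-, 3052 ± 475 in Mdc1-/-, 2854 ± 414 in 53bp1-/- and 2704 ± 198 in Scid lines, against 3118 ± 229 in WT lines. Their genotypes thus formed a gradual order in which neighbours lay within the spread of lines. Exo1 (1418026_at) averaged 1784 ± 42.5 in Atm-/-, 1667 ± 150 in Mre11A/A, 1637 ± 186 in H2ax-/-, 1555 ± 256 in 53bp1-/-, 1535 ± 69.8 in Scid and 1531 ± 56.7 in Mdc1-/- lines, against 1746 ± 160 in WT lines.

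Blm averaged 1569 ± 484 in untreated Scid, 1504 ± 138 in Atm-/-, 1503 ± 107 in H2ax-/-, 1363 ± 221 in 53bp1-/-, 1357 ± 49.4 in Mdc1-/- and 1356 ± 38.8 in Mre11A/A lines, against 1464 ± 108 in WT lines. Bard1 averaged 87.1 ± 3.47 in Atm-/-, 73.7 ± 17.3 in Mdc1-/-, 64.9 ± 11.7 in 53bp1-/-, 59.0 ± 21.2 in Scid, 55.8 ± 2.72 in H2ax-/- and 51.3 ± 21.2 in Mre11A/A lines, against 69.2 ± 11.03 in WT lines. The Atm-/- lines, at 87.5, 90.3 and 83.4, lay above the WT lines, at 56.6, 77.1 and 73.9, but at this signal the difference was 0.28 ± 0.27 (adjusted p = 0.773). Untreated Atm-/- and WT lines did not overlap for 3 of the 19 probe sets, all higher, beside 11.4% of all probe sets in either direction. Against WT, 3 lay higher and 3 lower in Mre11A/A (beside 24.8%) and likewise 3 and 3 in H2ax-/- lines (beside 28.1%). In Mdc1-/- lines 2 lay higher and 2 lower (beside 28.8%), and in 53bp1-/- lines 2 lay lower (beside 25.8%).

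Levels in irradiated lines are given in the same way for 4 members. Rad54l averaged 1873 ± 178 in irradiated Atm-/-, 1551 ± 123 in Scid, 1428 ± 106 in Mdc1-/-, 1407 ± 117 in H2ax-/-, 1360 ± 66.8 in Mre11A/A and 1279 ± 176 in 53bp1-/- lines, against 1711 ± 33.9 in WT lines. Exo1 averaged 2108 ± 129 in irradiated Atm-/-, 1713 ± 322 in H2ax-/-, 1604 ± 296 in Scid, 1590 ± 128 in Mre11A/A, 1441 ± 216 in 53bp1-/- and 1386 ± 58.1 in Mdc1-/- lines, against 1572 ± 187 in WT lines. The 3 irradiated Atm-/- arrays held 3 of the 4 highest irradiated Exo1 signals, together with 1963 in H2ax-/- line 2. Rad51ap1 averaged 3392 ± 460 in irradiated Atm-/-, 3064 ± 261 in H2ax-/-, 3023 ± 143 in Mre11A/A, 2773 ± 365 in 53bp1-/-, 2634 ± 326 in Mdc1-/- and 2607 ± 119 in Scid lines, against 2687 ± 173 in WT lines. Palb2 averaged 509.5 ± 87.5 in irradiated H2ax-/-, 499 ± 2.80 in Mdc1-/-, 429 ± 13.1 in Mre11A/A, 424 ± 56.9 in 53bp1-/-, 412 ± 26.3 in Atm-/- and 295 ± 84.8 in Scid lines, against 339 ± 101 in WT lines. Levels among irradiated arrays were not tested between genotypes.

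For comparison, genes that act beside the members were taken as a list of 48 other recombination and Fanconi anaemia genes, of which 46 were measured, each by its brightest probe set. Averaged over genotypes, 1 of the 46 rose and 2 fell after radiation (2.17% and 4.35%), beside 6.03% and 7.06% of all genes. Rad52, a mediator of strand annealing, rose to 407 ± 59.99 in irradiated lines, against 348 ± 41.9 in untreated lines (SD, n = 21 lines), by 0.21 ± 0.05 (adjusted p = 0.00284), and was higher in 19 of 21 lines. Swi5, a recombination factor, fell to 5487 ± 718 in irradiated lines, against 5931 ± 594 in untreated lines (-0.12 ± 0.04, adjusted p = 0.0396). Fance, of the Fanconi core complex, fell to 255 ± 69.2, against 295 ± 62.3 (-0.22 ± 0.07, adjusted p = 0.0422). Fancf, next by p, had -0.10 ± 0.03 (adjusted p = 0.0718). The list's median change was -0.02, beside -0.02 for the 8 members and 0.00 for all genes.

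The same arrays recorded strong changes in other lists. Of 21 measured p53 targets 19 rose, with a median of 0.93 on the log2 scale. Cdkn1a, the inhibitor of cyclin-dependent kinases, rose to 7621 ± 4019 in irradiated lines, against 2041 ± 1066 in untreated lines, by 1.72 ± 0.07 (adjusted p = 8.03e-14), and in 21 of 21 lines. Bbc3, a BH3-only death gene, rose by 1.40 ± 0.08 and Mdm2, the ligase that degrades p53, by 1.06 ± 0.07. Of 31 G2/M genes 27 fell, with a median of -0.20. Plk1, a mitotic kinase, fell to 1893 ± 424 in irradiated lines, against 2530 ± 264 in untreated lines (-0.44 ± 0.04, adjusted p = 1.7e-08).

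Among 32 S phase and replication genes 6 fell and 1 rose, with a median of -0.03. The licensing factors Cdc6 (-0.31 ± 0.03, adjusted p = 2.62e-07) and Cdt1 (-0.16 ± 0.03, adjusted p = 0.000448) fell, as did Dtl, which directs Cdt1 to degradation (-0.28 ± 0.04, adjusted p = 2.16e-05). Rrm2, a subunit of ribonucleotide reductase, rose by 0.10 ± 0.03 (adjusted p = 0.0395). In bulk samples a lower signal can come from fewer cells in a phase or from less RNA per cell, and these cannot be told apart.

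**Figure D4:**
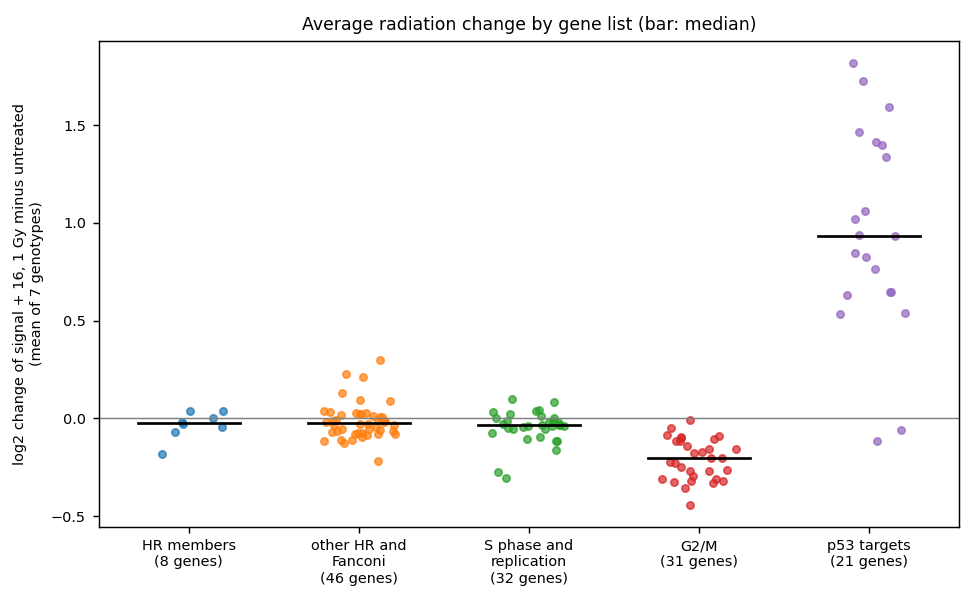
Average change after 1 Gy of each measured gene in 5 lists (log2 of signal + 16, irradiated minus untreated, mean of 7 genotypes; 1 point per gene, bar at the median). The 8 members lie between -0.18 and 0.04, S phase and other recombination genes centre near 0, G2/M genes centre at -0.20 and p53 targets at 0.93.

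By genotype, 1 of 21 p53 targets rose past the test in Atm-/-, 18 in Scid, 1 in Mre11A/A, 19 in 53bp1-/-, 14 in H2ax-/-, 19 in Mdc1-/- and 17 in WT lines. Equal counts did not mean equal changes. The median change of the 21 was 0.096 in Atm-/-, 1.275 in Scid, 0.662 in Mre11A/A, 1.219 in 53bp1-/-, 0.742 in H2ax-/-, 1.22 in Mdc1-/- and 1.005 in WT lines. Of the 21, 16 were above 0 in Atm-/- and 20 in Mre11A/A lines. The shares of all genes that rose were 0.518% in Atm-/-, 1.57% in Scid, 0.0486% in Mre11A/A, 1.34% in 53bp1-/-, 0.802% in H2ax-/-, 2.89% in Mdc1-/- and 1.68% in WT lines. The G2/M genes that fell numbered 0 of 31 in Atm-/-, 11 in Scid, 0 in Mre11A/A, 5 in 53bp1-/-, 11 in H2ax-/-, 19 in Mdc1-/- and 6 in WT lines. The shares of all genes that fell were 0.729% in Atm-/-, 0.705% in Scid, 0% in Mre11A/A, 0.308% in 53bp1-/-, 0.689% in H2ax-/-, 2.08% in Mdc1-/- and 1.35% in WT lines. Beside these lists, the members' median changes were 0.07 in Atm-/-, 0.03 in Scid, -0.04 in Mre11A/A, -0.03 in 53bp1-/-, 0.07 in H2ax-/-, -0.08 in Mdc1-/- and -0.05 in WT lines, with 0 of 8 called in each.

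Lines of a genotype were not alike, and several members varied together from line to line. Across the 21 untreated lines the 28 pairs of members had a median correlation of 0.22, and 25 of the 28 were above 0. The closest pairs were Rad51ap1 with Rad54l (r = 0.63) and Brca1 with Rad51ap1 (r = 0.57). For the change after radiation, Brca1 with Rad51ap1 gave r = 0.72 and Rad51ap1 with Blm r = 0.69. These are descriptions over 21 lines, and both values of a pair come from the same array and share its scaling. Correlations over pairs of all genes were not computed, so no background stands beside them. The values for Rad54l are those of 1450862_at, which correlated at -0.04 with each of the other well-measured Rad54l probe sets over the untreated lines.

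Some of this followed a few lines. Of the 8 members, 5 (Blm, Brca2, Exo1, Rad51ap1 and Rad54l) had their lowest untreated value of all 21 lines in 53bp1-/- line 1. There Rad54l had 997, Exo1 1296, Blm 1122, Brca2 676 and Rad51ap1 2390. In 53bp1-/- lines 2 and 3 the same genes had 1606 and 1356 (Rad54l), 1563 and 1807 (Exo1), 1556 and 1410 (Blm), 960 and 962 (Brca2), and 3185 and 2986 (Rad51ap1). Brca1 and Palb2 had their lowest untreated values in Scid line 2, at 1053 and 299.

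As a summary, each gene's untreated level was standardized over the 21 lines and averaged over the 8 members, in SD units. 53bp1-/- line 1 was lowest at -1.65 and Scid line 2 next at -0.90; Atm-/- lines 1, 2 and 3 were highest or near it at 1.04, 0.59 and 0.62. The same average over S phase genes was -0.98 in 53bp1-/- line 1 and -0.84 in Scid line 2. Over G2/M genes it was -1.24 and -1.53 in these lines. Across lines the members' average correlated with that of S phase genes (r = 0.77, Spearman's rho = 0.60, n = 21 lines), and at r = 0.58 without these 2 lines. With G2/M genes it gave r = 0.60 and rho = 0.45, and r = 0.15 without them. All of these averages share the arrays and their scaling, and the proportion of cells in each phase was not tested.

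**Figure D5:**
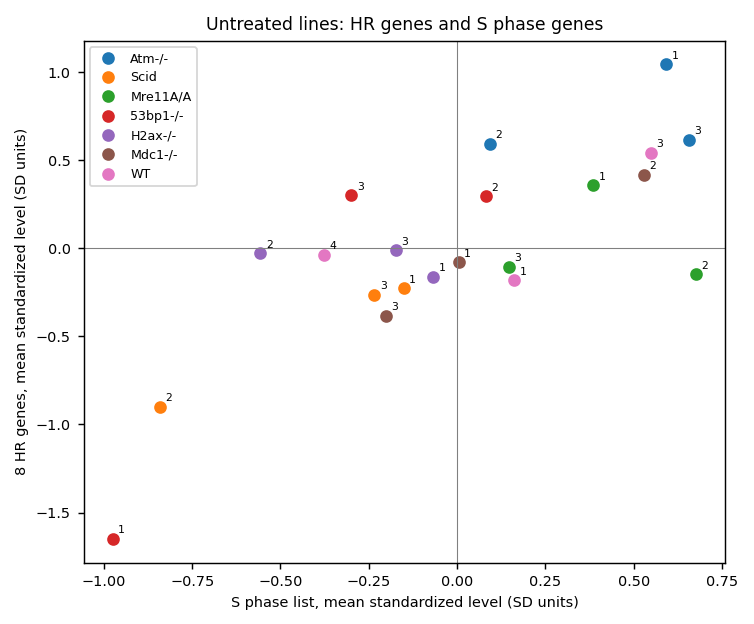
Mean standardized untreated level (SD units) of the 8 homologous recombination genes against that of 32 S phase genes, 1 point per line, coloured by genotype and numbered by line. 53bp1-/- line 1 (-1.65 and -0.98) and Scid line 2 (-0.90 and -0.84) lie at the lower left, and the Atm-/- lines lie at 0.59 to 1.04 on the members' axis.

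Each gene's change after radiation was standardized over the 21 lines and averaged in the same way. On this scale 0 is the mean of the 21 lines and does not mark an absence of change. The members' average went with that of S phase genes from line to line (r = 0.74, rho = 0.65, and r = 0.64 without Scid lines 1 and 2). Scid line 1 had the lowest averages, -0.97 for members and -0.89 for S phase genes, while H2ax-/- line 2 (0.91 and 0.60) and Atm-/- line 3 (0.86 and 0.55) had the highest for members. Scid lines 1, 2 and 3 lay on both sides of this mean, at -0.97, 0.74 and 0.71. The 3 Atm-/- lines were all above the mean of lines and the 3 Mre11A/A and 3 WT lines all below it.

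Genes whose untreated level was most like the members' average over the 21 lines were Prc1 (r = 0.84), Arhgap11a (r = 0.83), Cdca3 (r = 0.79), Dph3 (r = 0.74), Rrm2 (r = 0.73), Nudt9 (r = 0.72), Slc36a2 (r = 0.72) and Zfp229 (r = 0.72), of 12337 genes. The median r was 0.37 over S phase, 0.39 over G2/M and 0.27 over other recombination genes, -0.10 over p53 targets and 0.00 over all genes. For the change after radiation the most similar genes were Orc6 (r = 0.78), Clspn (r = 0.76), Endou (r = 0.76), Rfc4 (r = 0.75), Ap1ar (r = 0.73), Klhdc2 (r = 0.72), Smc2 (r = 0.72) and Dmap1 (r = 0.71). There the median r was 0.30 over S phase genes, 0.21 over other recombination genes, 0.18 over G2/M genes and -0.40 over p53 targets.

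Probe sets of a gene did not always order the lines alike. The other Rad51ap1 probe sets correlated with the brightest at 0.45, 0.59 and 0.77 over the untreated lines. For Exo1 the values were 0.52 for 1418027_at and 0.02 for the weak 1430225_at. For Brca1 they were 0.28, 0.28 and -0.14, and for Rad54l -0.04, -0.04 and 0.36.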

How the data were processed

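Per the labels' protocols, RNA of each sample was labelled with biotin by a one-cycle protocol and hybridized to 1 array. The values are intensities per probe set, not log-transformed, as deposited; MAS5 is the software named in the submitters' processing notes. The table had 45101 probe sets. Without its 64 controls, 34945 carried a single gene symbol, 932 carried several, and for 9160 the annotation used here had no name. The number of value columns not used was 0. Precision is limited by the small number of arrays, 3 in each group.

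Values were tested as log2(signal + 16), which understates changes of weak probe sets. Probe sets above the median of their own array on at least 3 arrays were kept, 28217 in all, for 12345 genes. In R 4.3.3, limma 3.58.1 (moderated variances with an intensity trend) fitted the response with a fixed effect for each line and untreated levels over the 21 untreated arrays; both fits had 14 residual degrees of freedom. P-values of two-sided tests were adjusted by Benjamini-Hochberg over all kept probe sets within each comparison and called at 0.05.

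The block follows the series' design text, which compares treated and untreated cells of the same line; the labels number WT lines 1, 3 and 4 and mutant lines 1, 2 and 3. Deviations from group means correlated at 0.323 to 0.599 in all 21 same-numbered pairs and at most at -0.0404 in the 42 others. The deviations of a group sum to 0, so values below 0 in the other pairs follow in part from those above 0 in same-numbered pairs. The labels call samples of a group biological replicates.

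The members and the gene lists were chosen with earlier results of these data known. Named genes were all member probe sets, up to 4 genes of the pathway list by p, and the 8 genes most correlated with the members' average; examples of the other lists and the printed promoters were picked after their values were seen. The fits were tested on simulated data. Alternatives were other scalings, pseudocounts, filters, 1 probe set per gene, no intensity trend, unpaired fits and leaving out lines. Python 3.11.15, numpy 2.4.6, pandas 2.3.3 and matplotlib 3.10.9 were used for summaries and figures.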

Additional observations from a re-analysis of the deposited data

How the results depend on the processing

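The number of members past the test was 0 in each genotype's response, in the 6 differences from WT, in the F test of responses and in each untreated comparison with WT, and it was 0 under every alternative run for these. The average response, with 1 member called, gave 0 with no filter on low values and with no replicate block. It also gave 0 with only probe sets above the median on all arrays and with the brightest probe set per gene, but these settings leave the called probe set out before testing and do not bear on it. The count was 0 as well without Atm-/- line 2 and WT line 4, an alternative chosen after seeing the data. Leaving out 1 line at a time gave counts between 0 and 2. The adjusted p of Brca1 1427698_at was 0.0741 with no filter and 0.0793 with no replicate block. The F test of untreated levels, with 1 member called, gave 0 with the brightest probe set per gene, which again leaves out the called one, and between 0 and 2 without 1 line. Over all 42 arrays it gave 3 with no replicate block and 3 with the replicate block as a random effect, namely Rad54l 1423123_at, Rad54l 1450862_at and Rad51ap1 1448899_s_at in both. The count was 2 without 53bp1-/- line 1 and without 53bp1-/- line 2. Without the replicate block, calls among all probe sets numbered 681 for the average response and 23 for WT, against 3040 and 634 with it; the unpaired fit counts differences in level between lines as spread. Changes of weakly hybridizing probe sets, Bard1 among them, were limited by their signal over background.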
